A study of Mus musculus with 12 samples.

Results

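The genes described here are the 10 that handle sterols at the intestinal cell surface and just behind it: Npc1l1 and Scarb1 (uptake), Abcg5, Abcg8, Abca1 and Abcg1 (efflux), Soat2 (esterification), the receptors Nr1h3 and Nr1h2, and Mylip (degradation of the low-density lipoprotein receptor). They were taken by symbol, as every array probe whose transcript identifier maps to any of them. That gave 15 probes for 10 genes, among 15583 named genes and 26107 features tested. Both the symbols and the lists named further on were chosen with earlier results of these data known. Gene expression in whole duodenum of male mice was profiled on 12 one-colour arrays, 3 for each of 4 groups. The groups were wild type given vehicle, wild type given IIAEK, Akp3-/- given vehicle and Akp3-/- given IIAEK. Mice were 7 weeks old, dosing by mouth lasted 14 days, and the vehicle, which all mice received, was carboxymethylcellulose sodium salt at 5 g/L. IIAEK, a pentapeptide named by its residues and called cholesterol-lowering in the labels, was given once daily at 600 mg per kg body weight. The source labels of IIAEK samples give their dosing time in weeks rather than days; the 14 days of the titles and the design are used here. Akp3 encodes an intestinal alkaline phosphatase, a brush border enzyme. Mice fasted for 8 h before tissue collection. How the knockout was made and its strain are not given in the sources used here, and nothing beyond a replicate number ties an array to a cage, litter or day, so p-values measure the spread between these samples.

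Dietary and biliary cholesterol enters the enterocyte through NPC1L1 at the brush border, and part of it is returned to the lumen by the paired half-transporters ABCG5 and ABCG8. Cholesterol that stays is esterified by SOAT2 and packed into chylomicrons, or leaves across the basolateral membrane through ABCA1. Oxysterols activate the liver X receptors (LXRs) encoded by Nr1h3 and Nr1h2, which raise transcription of Abcg5, Abcg8, Abca1, Abcg1 and Mylip and so couple sterol load to efflux.

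Promoters of 3 of these genes are shown because they carry the best known features of this circuit: a head-to-head gene pair, an LXR element and a site for an intestinal factor. Each is 300 bases of RefSeq sequence of GRCm38.p6, from 250 bases before the annotated start to 50 bases from it on, read in the direction of the gene. Capitals mark matches to a motif. The table held 9 windows for 7 of the 10 genes, with a pair of windows each for Abcg8 and Nr1h3; Abcg1, Scarb1 and Soat2 had none.
Abcg8 (chr17:84682871-84683170, plus strand): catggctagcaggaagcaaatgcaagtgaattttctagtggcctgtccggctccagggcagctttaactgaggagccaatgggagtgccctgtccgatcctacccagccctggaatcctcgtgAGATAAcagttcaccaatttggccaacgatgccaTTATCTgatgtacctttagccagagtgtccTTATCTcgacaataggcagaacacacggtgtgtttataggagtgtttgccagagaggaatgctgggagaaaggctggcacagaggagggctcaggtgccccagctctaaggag
Abca1 (chr4:53159846-53160145, minus strand): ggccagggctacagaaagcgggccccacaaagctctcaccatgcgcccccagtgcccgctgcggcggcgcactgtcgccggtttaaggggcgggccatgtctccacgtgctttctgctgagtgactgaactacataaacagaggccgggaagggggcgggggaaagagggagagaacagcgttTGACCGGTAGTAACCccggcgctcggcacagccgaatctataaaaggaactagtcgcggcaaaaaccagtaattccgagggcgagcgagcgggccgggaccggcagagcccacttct
Npc1l1 (chr11:6230196-6230495, minus strand): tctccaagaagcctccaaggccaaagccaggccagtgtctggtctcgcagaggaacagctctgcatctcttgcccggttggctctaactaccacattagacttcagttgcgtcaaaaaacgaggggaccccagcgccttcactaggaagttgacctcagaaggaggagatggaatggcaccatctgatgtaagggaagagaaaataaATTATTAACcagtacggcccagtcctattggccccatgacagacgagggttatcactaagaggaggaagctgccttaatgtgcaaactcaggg
The Abcg8 window also holds the Abcg5 start, at position 141 counted from 1 at its left end and on the other strand. The starts lie 110 bases apart and the windows of the pair (Abcg5 at chr17:84682962-84683261, minus strand) share 209 bases. Its capitals are 3 matches to AGATAA, the motif of GATA factors, in either direction, and all 3 lie in the shared stretch, at -127 to -122, -93 to -88 and -63 to -58 from the Abcg8 start. At least 1 AGATAA occurred in 11.2% of 32851 promoter windows of this length, and 3 or more in 0.107%. In the Abca1 window the capitals at -67 to -53 match a loose spelling of the direct repeat bound by LXR. It is GGTNA repeated with 5 bases between. Each GGTNA is a half-site without its first base. The 5 bases between thus include the first base of a half-site, and the gap between full half-sites is 1 base shorter. This spelling occurred in 0.718% of windows on either strand and in 1 of the 9 windows here. In the Npc1l1 window the capitals match GTTAATNAT, a part of the HNF1 motif, at -43 to -35, found in 0.801% of windows. The sterol element TCACNCCAC of SREBP and the LRH-1 motif CAAGGTCA, present in 1.24% and 1.56% of all windows, matched 0 of the 9. A match is a run of letters and was not measured as a site.

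A level below is log2 of the processed spot intensity (background-subtracted by the scanner software) minus the 75th percentile of the same array. It compares arrays for 1 probe and does not compare genes with each other. The share of probes well above background ran from 55.9% to 64.0% over the arrays, replicates of a group correlated at 0.953 to 0.990, and no spot was saturated. Akp3 lay at 1.05 to 2.72 on the wild-type arrays and at -4.90 to -3.80 on the knockout arrays, so it follows the genotype labels. The arrays came from 2 slides, each scanned once: slide 1 held wild-type vehicle 1 and 2, wild-type IIAEK 1 and 2, knockout vehicle 1 and knockout IIAEK 1 and 2, and slide 2 the other 5. Enterocyte markers, 11 of 11 measured on every array, had a mean level of 6.49 to 7.08. The mean of 9 stomach and Brunner gland mucous genes was 3.68 to 5.10 on 6 arrays (wild-type vehicle 1, 2 and 3, wild-type IIAEK 3, knockout vehicle 1 and knockout IIAEK 3) and -2.20 to -0.91 on the other 6, with 4 of the 9 not well above background on at least 1 array. All 3 wild-type vehicle arrays were thus of the high kind against 1 of 3 in each other group. The mean of 12 pancreas genes was 2.91 on wild-type vehicle 1 and 7.86 to 9.84 elsewhere. That of 6 B cell genes was 1.06 and 0.35 on wild-type vehicle 1 and 2 and -2.75 to -1.47 elsewhere, and that of 5 hepatocyte genes was 0.84 on wild-type vehicle 3 and -1.55 to -0.54 elsewhere; the part of these lists in the results was not tested. In whole tissue, fewer cells of a type and less RNA per cell cannot be told apart.

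All 15 probes passed the filter, and the probe that stands for each gene, its brightest, was well above background on all 12 arrays. Over the 12 arrays Abcg8 spanned the widest range, 1.49 log2 units or 2.81-fold, followed by Soat2 with 1.17 and Abcg5 with 1.03. Nr1h3 spanned 0.41 and Nr1h2 0.57, the narrowest. The standard deviation of Abcg8 was higher than that of 76.7% of named genes, and that of Nr1h3 higher than that of 7.87%. At an adjusted p under 0.05 (limma, Benjamini-Hochberg over all 26107 features), 0 of the 10 genes were called in any of the 7 contrasts. Among all features the share called was 0% for IIAEK against vehicle in wild type, in knockout, for the difference of these effects and for the averaged IIAEK effect. It was 0.00766% (2 features, Akp3 and an unnamed probe) for knockout against wild type under vehicle, and the same under IIAEK. For the averaged knockout effect it was 0.0192%, or 5 features: Akp3, Rgp1, Utp14b and 2 unnamed probes, of which those other than Akp3 are named after their values were seen. The estimates below are therefore given with their intervals and unadjusted p, and no gene is said to have changed.

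**Figure D1:**
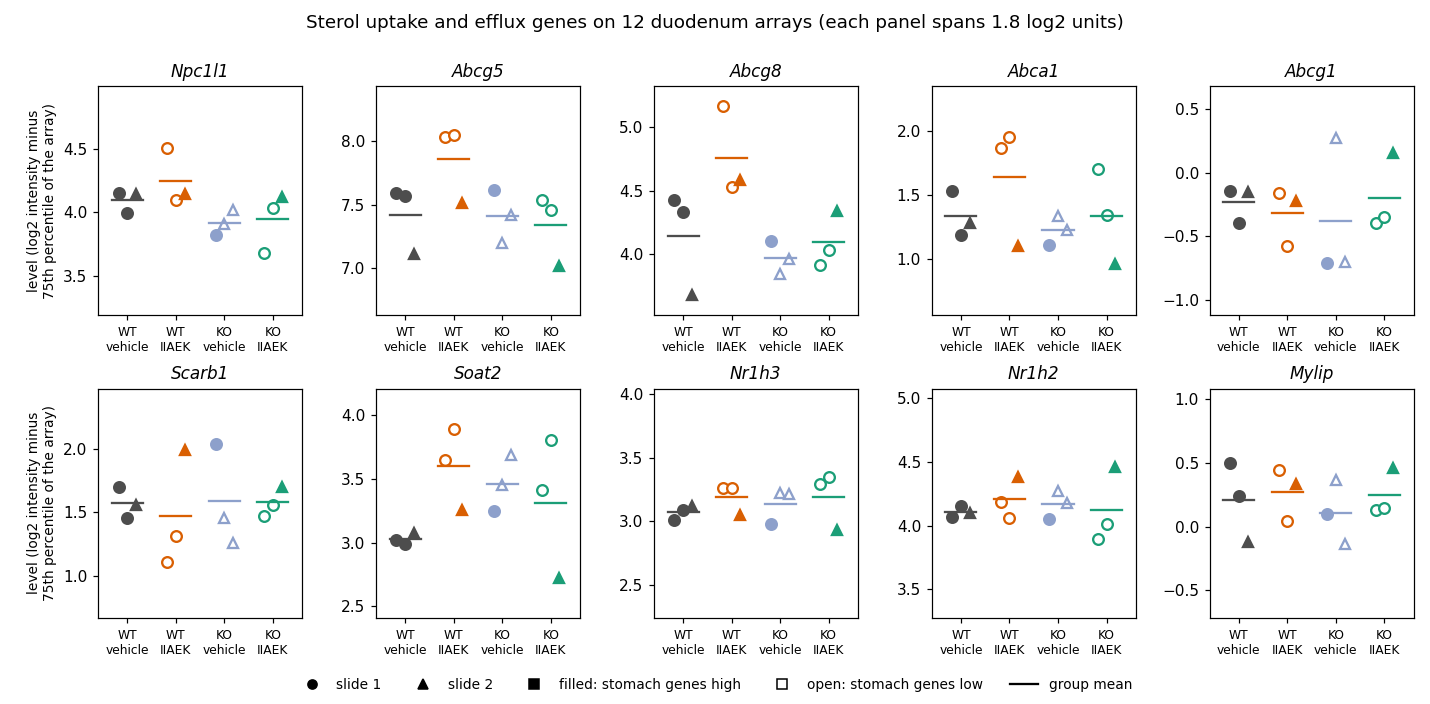
Level of each of the 10 genes (y axis, log2 processed intensity minus the array's 75th percentile) on each of 12 arrays, in 4 groups (x axis). Circles are slide 1 and triangles slide 2, filled where the stomach gene mean is 3.68 or more and open where it is -0.91 or less, and bars are group means; Abcg8 is higher on all 3 wild-type IIAEK arrays than on any other wild-type array.

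Npc1l1, the sterol transporter of the brush border and target of the absorption inhibitor ezetimibe, read 4.15, 3.997 and 4.14 on the wild-type vehicle arrays and 4.50, 4.10 and 4.14 under IIAEK. On the knockout arrays it read 3.82, 3.91 and 4.02 with vehicle and 3.68, 4.03 and 4.12 with IIAEK. Group means ran from 4.25 ± 0.22 (SD, n = 3) in wild type with IIAEK through 4.10 ± 0.09 and 3.95 ± 0.23 to 3.92 ± 0.10 in knockout with vehicle, and the ranges of each neighbouring pair overlapped. IIAEK against vehicle differed by 0.15 in wild type (95% confidence interval -0.19 to 0.49) and by 0.03 in knockout (-0.31 to 0.37). Averaged over treatments the knockout was 0.24 lower (interval -0.48 to -0.0014, unadjusted p = 0.0489, adjusted p = 0.999 by limma). On slide 1 the knockout under IIAEK was 0.44 lower than wild type, whereas on slide 2, with 1 array of each, the difference was -0.02.

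Scarb1 encodes SR-BI, a receptor for high-density lipoprotein that also sits on enterocytes. Its wild-type levels were 1.70, 1.46 and 1.56 with vehicle and 1.11, 1.32 and 1.99 with IIAEK. Knockout arrays gave 2.04, 1.46 and 1.26 with vehicle and 1.47, 1.56 and 1.70 with IIAEK. The 4 group means lay between 1.47 and 1.59, and all groups overlapped. In wild type the IIAEK estimate was -0.10 (interval -0.63 to 0.43), made of -0.37 on slide 1 and 0.43 on slide 2. In knockout the slides gave -0.52 and 0.34. A second, dimmer Scarb1 probe gave -0.21 for IIAEK in wild type and -0.02 in knockout. By the brightest probe, levels spanned 1.46 to 2.04 on the 6 arrays high in stomach genes and 1.11 to 1.56 on the other 6, with overlap.

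Abcg8, one half-transporter of the pair that returns sterols to the lumen, read 4.42, 4.33 and 3.68 in wild type with vehicle. With IIAEK its wild-type levels were 5.17, 4.53 and 4.58, each above every wild-type vehicle array. Of all features 9.28% did not overlap between these groups. Knockout arrays read 4.11, 3.84 and 3.96 with vehicle and 3.91, 4.03 and 4.34 with IIAEK, and these groups overlapped. The order of the means was 4.76 ± 0.35, 4.14 ± 0.41, 4.10 ± 0.22 and 3.97 ± 0.13 for wild type with IIAEK, wild type with vehicle, knockout with IIAEK and knockout with vehicle (SD, n = 3), and only the first stood clear of its neighbour. The wild-type difference was 0.62 (SE 0.23, interval 0.11 to 1.12), or 1.53-fold, with an unadjusted p of 0.0206 and an adjusted p of 0.999 in limma. In knockout the same contrast gave 0.13 (interval -0.38 to 0.63), made of -0.13 on slide 1 and 0.44 on slide 2. The test of the difference between the effects gave -0.49 (interval -1.20 to 0.22, unadjusted p = 0.157, adjusted p = 1).

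The wild-type estimate for Abcg8 was 0.47 on slide 1 and 0.91 on slide 2, where it rests on 1 array per group. Without wild-type vehicle 3, the lowest of the 12 arrays for this gene and the highest in hepatocyte genes, it was 0.38 (unadjusted p = 0.101, limma), and without wild-type IIAEK 1, the highest, 0.41 (0.0999). With the stomach and pancreas means of each array in the model it was 0.81 (0.00769), and Abcg8 was not called. That fit does not fully separate treatment from tissue makeup, since all 3 wild-type vehicle arrays were high in stomach genes. Under IIAEK the knockout was 0.66 lower than wild type (interval -1.17 to -0.16, unadjusted p = 0.0142, adjusted p = 1), with no overlap between the 3 arrays of each group. Of all features 3.85% did not overlap in this contrast. This contrast shares the wild-type IIAEK arrays with the one above. It was -0.87 on slide 1 and -0.24 on slide 2. The same -0.87, from the same 4 arrays, came from the 6 arrays low in stomach genes. That subset was added after seeing the data and holds no wild-type vehicle array. There the estimate had an unadjusted p of 0.00479 (adjusted p = 1) by limma.

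Abcg5, the other half-transporter, read 7.59, 7.56 and 7.11 in wild type with vehicle and 8.03, 8.04 and 7.51 with IIAEK. In knockout it read 7.61, 7.20 and 7.42 with vehicle and 7.53, 7.46 and 7.02 with IIAEK. Within wild type the arrays of slide 2 were the lowest of both groups, so that the groups overlapped. The wild-type IIAEK estimate was 0.44 (SE 0.21, interval -0.03 to 0.91, unadjusted p = 0.0645), against -0.07 in knockout (interval -0.54 to 0.40). The wild-type estimate was nearly equal on the slides, 0.46 on slide 1 and 0.40 on slide 2, where it rests on 1 array per group. Over all alternatives it ran from 0.25 to 0.61. Without single arrays it ran from 0.29 to 0.61 (unadjusted p from 0.0191 to 0.234, limma). Under IIAEK the knockout was 0.53 lower (interval -0.997 to -0.05, unadjusted p = 0.032, adjusted p = 1), again alike on the slides, at -0.54 and -0.49. With slide as a block in the fit, the unadjusted p was 0.00323 for IIAEK in wild type, 0.00245 for the difference between the effects (-0.66) and 0.000969 for the knockout under IIAEK. Their adjusted p were 0.787, 0.822 and 0.947.

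Over the 12 arrays Abcg5 and Abcg8 correlated at r = 0.69, as a description of arrays that share tissue makeup and slide. For Abcg8 this placed Abcg5 284th among 15582 other named genes, and for Abcg5 it placed Abcg8 1331st. The part of the shared promoter stretch in this correlation was not tested. The means of both were highest in wild type with IIAEK.

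Abca1, which loads cholesterol onto apolipoprotein A-I at the basolateral side, read 1.54, 1.19 and 1.28 in wild type with vehicle and 1.87, 1.95 and 1.10 with IIAEK. Knockout levels were 1.11, 1.34 and 1.23 with vehicle and 1.70, 1.34 and 0.96 with IIAEK. In both genotypes the IIAEK arrays included a high and a low value on either side of the vehicle arrays, and the low one, on slide 2, was an array high in stomach genes. The wild-type estimate was 0.31 (interval -0.23 to 0.84), with 0.55 on slide 1 and -0.19 on slide 2. In knockout it was 0.11 (interval -0.42 to 0.64), with 0.41 and -0.32. With the stomach and pancreas means in the model the wild-type estimate was 0.14 (unadjusted p = 0.457) and the knockout one 0.10. Without wild-type IIAEK 3 the wild-type estimate was 0.58 (0.0195). In knockout the 6 arrays low in stomach genes gave 0.24. A second, dimmer Abca1 probe gave 0.20 for IIAEK in wild type and -0.03 in knockout.

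Abcg1, which moves cholesterol to high-density lipoprotein and is best known from macrophages, lay at -0.40 to -0.14 in wild type with vehicle, at -0.58 to -0.16 with IIAEK and, in knockout, at -0.71 to 0.27 and -0.39 to 0.15. All 4 groups overlapped. The pooled estimates for IIAEK were -0.09 in wild type (interval -0.67 to 0.49) and 0.18 in knockout (-0.40 to 0.76). Single arrays moved the knockout estimate, to 0.51 without vehicle 2 (unadjusted p = 0.0361, adjusted p = 1 by limma) and to 0.0077 without IIAEK 3. The highest level, 0.27 on knockout vehicle 2, fell on the array with the highest mean of 10 macrophage genes, 1.73 against 0.97 to 1.33 elsewhere. The next, 0.15 on knockout IIAEK 3, fell on the array highest in the means of 8 endothelial genes (0.35) and 8 smooth muscle genes (3.22). Their part in the Abcg1 level was not tested.

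**Figure D2:**
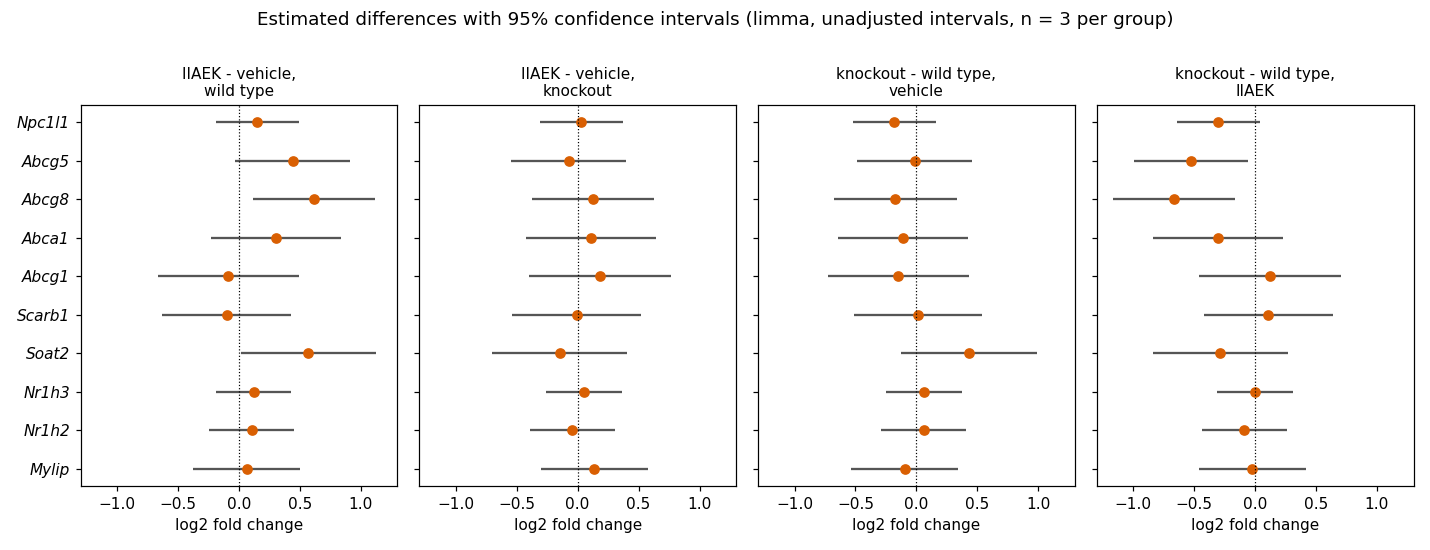
Estimated log2 fold change (x axis) of each of the 10 genes (y axis) in 4 pairwise comparisons of groups of 3 arrays; points are limma estimates and bars unadjusted 95% confidence intervals. The bars of Abcg8 (0.11 to 1.12) and Soat2 (0.01 to 1.13) for IIAEK in wild type, and those of Abcg8 (-1.17 to -0.16) and Abcg5 (-0.997 to -0.05) for knockout under IIAEK, leave out 0, and every adjusted p is 0.993 or more.

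Soat2, the acyltransferase that esterifies absorbed cholesterol, read 3.02, 2.99 and 3.07 in wild type with vehicle. All 3 other groups were wider: 3.65, 3.90 and 3.25 in wild type with IIAEK, 3.25, 3.45 and 3.69 in knockout with vehicle, and 3.41, 3.81 and 2.72 in knockout with IIAEK. By this brightest probe the wild-type IIAEK arrays and the knockout vehicle arrays each lay above all 3 wild-type vehicle arrays. Of all features 9.28% did not overlap for IIAEK in wild type and 14.4% for knockout under vehicle. IIAEK in wild type gave 0.57 (SE 0.25, interval 0.01 to 1.13, unadjusted p = 0.0458, adjusted p = 0.999 by limma), and knockout against wild type under vehicle gave 0.43 (interval -0.12 to 0.99, unadjusted p = 0.115). Both contrasts use the same wild-type vehicle arrays. In knockout the IIAEK estimate was -0.15, and the difference between the effects was -0.72 (interval -1.50 to 0.07, unadjusted p = 0.0702). Both depended on knockout IIAEK 3, the lowest array for this gene: without it they were 0.15 and -0.42 (unadjusted p = 0.152). The knockout estimate was 0.36 on slide 1 and -0.85 on slide 2, and the difference between the effects was -0.43 (0.085) with the stomach and pancreas means in the model. A second, dimmer Soat2 probe gave 0.32 (unadjusted p = 0.218), 0.52 (0.0559) and -0.69 (0.0702) for the first, the second and the last of these contrasts. On that probe wild-type vehicle, at -1.40 to -0.76, overlapped wild-type IIAEK, at -1.08 to -0.64, and knockout vehicle, at -1.12 to -0.26.

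By its brightest probe Soat2 divided along the stomach genes. On the 6 arrays high in them Soat2 was 2.72 to 3.25 and on the 6 low ones 3.41 to 3.90, without overlap. The same held for the brightest probe of Nr1h3, at 2.94 to 3.12 and 3.21 to 3.35. The second probe of each gene overlapped: that of Soat2 lay at -1.40 to -0.64 and -1.08 to -0.26, and that of Nr1h3 at 1.78 to 2.08 and 2.04 to 2.34. So the division was seen in 2 of the 15 probes, 1 of each gene, and in 2.63% of all features (686 of 26107). Wild-type vehicle arrays on slide 1 were of the high kind and wild-type IIAEK arrays on it of the low kind, and there the Soat2 estimate was 0.76. On slide 2 the 1 array of each group was of the high kind, and the difference was 0.18. With the stomach and pancreas means in the model the estimate was 0.27 (unadjusted p = 0.145) for IIAEK in wild type and 0.09 (0.612) for knockout under vehicle.

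**Figure D3:**
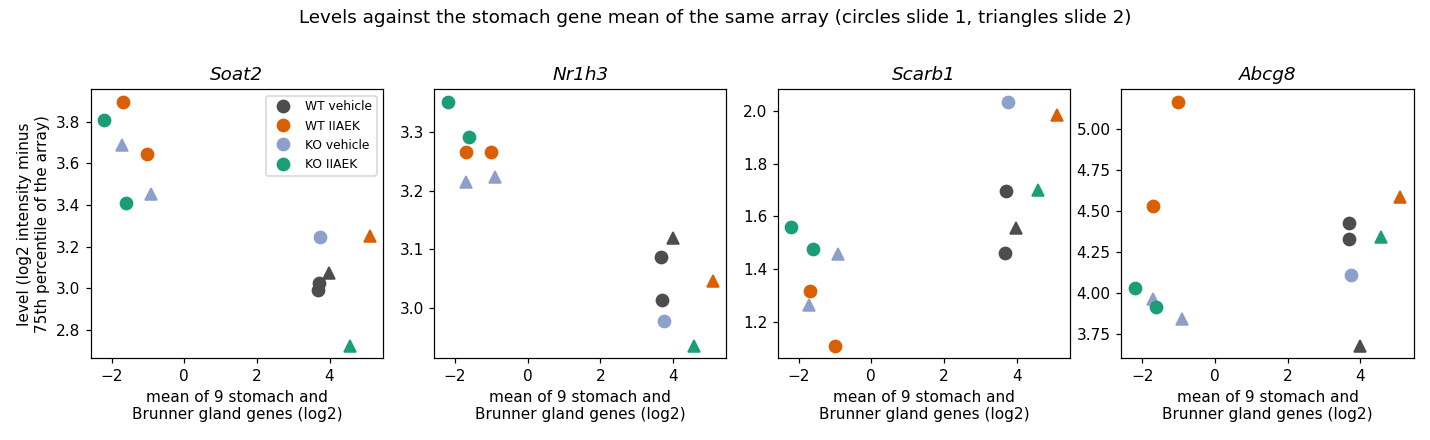
Level of Soat2, Nr1h3, Scarb1 and Abcg8 (y axes, log2) against the mean of 9 stomach and Brunner gland genes on the same array (x axis, log2), for 12 arrays coloured by group, with circles for slide 1 and triangles for slide 2. The brightest probes, plotted here, of Soat2 and Nr1h3 separate the 6 arrays at 3.68 to 5.10 from the 6 at -2.20 to -0.91, whereas Abcg8 and Scarb1 overlap between them.

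Nr1h3 encodes LXR alpha, the sterol-sensing receptor that is enriched in liver, intestine and macrophages. Its levels were 3.01, 3.09 and 3.12 in wild type with vehicle and 3.27, 3.27 and 3.05 with IIAEK, and in knockout 2.98, 3.22 and 3.21 with vehicle and 3.29, 3.35 and 2.94 with IIAEK. All groups overlapped. The IIAEK estimate was 0.12 in wild type (interval -0.19 to 0.43) and 0.05 in knockout (-0.26 to 0.36), and the knockout differed from wild type under IIAEK by less than 0.01 (-0.31 to 0.31). The slides gave opposite signs in both genotypes, 0.22 and -0.07 in wild type and 0.34 and -0.28 in knockout. The standard error of these estimates, 0.14, was the smallest of the 10 genes. A second probe of Nr1h3 gave 0.13 for IIAEK in wild type and -0.06 in knockout.

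Nr1h2, the widely expressed LXR beta, lay at 4.07 to 4.15 in wild type with vehicle, 4.06 to 4.38 with IIAEK, 4.05 to 4.28 in knockout with vehicle and 3.89 to 4.46 with IIAEK. Its IIAEK estimates were 0.10 in wild type (interval -0.24 to 0.45) and -0.05 in knockout (-0.39 to 0.30). A second, dimmer probe went the other way in wild type, at -0.21 (unadjusted p = 0.346). The highest level, 4.46, was on knockout IIAEK 3, the array highest in smooth muscle genes. The part of these genes in the Nr1h2 level was not tested.

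Mylip encodes IDOL, the LXR-induced ubiquitin ligase that sends the low-density lipoprotein receptor to degradation. Its levels ran from -0.12 to 0.50 and 0.04 to 0.44 in wild type with vehicle and IIAEK, and from -0.13 to 0.36 and 0.13 to 0.47 in knockout. The IIAEK estimates were 0.06 in wild type (interval -0.37 to 0.50) and 0.14 in knockout (-0.30 to 0.58). The wild-type estimate was -0.13 on slide 1 and 0.45 on slide 2, and -0.10 without wild-type vehicle 3. Mylip correlated at r = 0.65 with Abcg1 over the 12 arrays.

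Taken by contrast, 2 of the 10 genes (Abcg8 and Soat2) reached an unadjusted p under 0.05 for IIAEK in wild type, where 3.14% of all features did. In knockout 0 did, against 1.91%, and for the difference between the effects 0, against 1.52%. For knockout against wild type the counts were 0 under vehicle (3.85% of all features) and 2 under IIAEK (Abcg8 and Abcg5, 1.31%). For the averaged contrasts they were 1 for IIAEK (Abcg8, 2.94%) and 2 for knockout (Abcg8 and Npc1l1, 3.03%). Groups did not overlap for 2 genes for IIAEK in wild type (9.28% of all features), for 0 in knockout (4.68%), for 1, Soat2, for knockout under vehicle (14.4%) and for 1, Abcg8, under IIAEK (3.85%).

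The median estimate of the 10 genes was 0.14 for IIAEK in wild type, where the median of all features was 0.03, with 8 of 10 above 0 against 56.3% of all features. In knockout it was 0.04 against -0.0032, with 6 of 10 above 0 against 49.2% of all features. For knockout against wild type it was -0.06 against 0.03 under vehicle and -0.19 against -0.01 under IIAEK, where 8 of 10 lay below 0. Of all features 47.5% lay above 0 in the latter contrast. Estimates had opposite signs on the slides for 4 of the 10 genes for IIAEK in wild type, for 6 in knockout and for 5 each for knockout under vehicle and under IIAEK. Leaving out 1 array turned the sign of the estimate for 3, 7, 4 and 6 genes, in the same order, and for 4 for the difference between the effects. These contrasts share arrays, the genes share a tissue, and no test was made on the set.

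**Figure D4:**
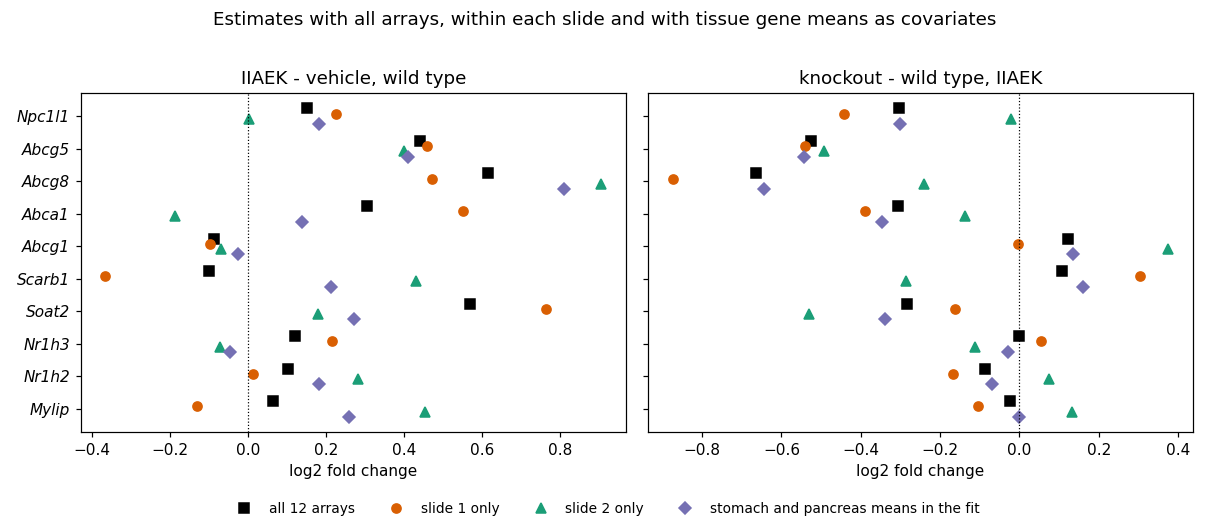
Log2 fold change (x axis) of the 10 genes (y axis) for IIAEK in wild type and for knockout against wild type under IIAEK, from all 12 arrays (squares), slide 1 (circles), slide 2 with 1 array per group compared (triangles) and with stomach and pancreas means in the model (diamonds). Abcg5 gives 0.46 and 0.40 on the slides in wild type and -0.54 and -0.49 in the other contrast, whereas Scarb1 (-0.37 and 0.43), Abca1 (0.55 and -0.19), Mylip (-0.13 and 0.45) and Nr1h3 (0.22 and -0.07) change sign between slides in wild type.

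Other genes of sterol balance were followed in lists. Cholesterol synthesis and its master factor SREBP-2 respond when cell sterol falls. Of 23 such genes 22 were tested, and in the 7 contrasts 0 were called higher or lower. Their median was -0.08 for IIAEK in wild type, with 10 above 0 and 12 below, and -0.04 in knockout, with 9 and 13. The smallest p of the averaged contrasts belonged to Cyp51 (lanosterol demethylase), -0.30 for IIAEK (interval -0.71 to 0.11), Ebp (a sterol isomerase), 0.17, Sc5d (a sterol desaturase), -0.18 for knockout, and Stard4 (a sterol carrier), -0.29.

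Of 12 further LXR targets and partners, all tested, 0 were called in any contrast. The median was 0.14 for IIAEK in wild type (8 above 0) and 0.06 in knockout (8 above 0). Scd1, the stearoyl-CoA desaturase, read 1.26, 1.01 and 0.96 in wild type with vehicle and 1.79, 1.77 and 1.38 with IIAEK. In knockout it read 0.93, 0.79 and 0.71 with vehicle and 0.45, 0.98 and 1.68 with IIAEK. Its averaged estimates were 0.40 for IIAEK (interval -0.0037 to 0.80) and -0.44 for knockout (-0.84 to -0.04, unadjusted p = 0.034, adjusted p = 0.999 by limma). Srebf1, the lipogenic factor, gave 0.30 for IIAEK, and the nuclear corepressor Ncor1 gave -0.15 for knockout.

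Of 22 sterol trafficking and esterification partners, all tested, 0 were called in any contrast. Their median was 0.12 for IIAEK in wild type (14 above 0) and -0.10 in knockout (8 above 0). Anxa2, an annexin of the brush border and endosomes, gave -0.27 for IIAEK (interval -0.49 to -0.04, unadjusted p = 0.0254, adjusted p = 1 by limma), and Cav1, the caveola protein, 0.26 (-0.01 to 0.52). Npc1, which exports cholesterol from lysosomes, gave -0.22 for knockout (-0.42 to -0.02, unadjusted p = 0.0349), and Lipa, the lysosomal acid lipase, -0.21 (-0.44 to 0.02).

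As a description of which genes followed the members most closely over the 12 arrays, Pearson correlations were ranked over 15582 other named genes. The closest to Npc1l1 were Abca7, at r = 0.92, Numa1 and Hexa. Abcg5 went with Gpr26 (0.95), Nek3 and Arhgef2, and Abcg8 with Ncor1 (0.92), Ston2 and Retreg2. For Abca1 they were Nudt4 (0.94), Mtmr4 and Slx4ip, for Abcg1 Elk3 (0.89), St3gal2 and Abca8b, and for Scarb1 Rnf217 (0.89), Tmc7 and Car2. Soat2 followed Zfand5 (0.95), Acbd4 and Slc35e2, Nr1h3 followed Tnfsf10 (0.95), E330011O21Rik and Trib3, Nr1h2 followed Atg2a (0.96), Col5a3 and Loxl1, and Mylip followed Gigyf1 (0.86), Nemp2 and Cwf19l1. Among the members the closest pair was Soat2 and Nr1h3, at r = 0.85, from the brightest probe of each, which are those divided along the stomach genes. Abcg5 and Abca1 followed at 0.75 and Npc1l1 and Abcg8 at 0.72. Such values rest on 12 arrays that share slides and tissue makeup, and the highest of 15582 is high by choice.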

How the data were processed

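Per the file headers, spots were quantified by Feature Extraction 10.7.3.1 (one colour); the deposited processed intensity of a spot is background-subtracted and not scaled between arrays. The authors' deposited value table holds log2 values whose making is not stated. It matched log2 processed intensity minus the 75th percentile, centred on each probe's median, at r of at least 0.999996 on every array, so its direction and scale are known and the level of a probe is not. Its column medians ranged from -0.09 to 0.12.

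Each array held 62976 spots; 3671 control spots and spots marked as outliers were left out and spots of a probe averaged. Transcript identifiers were matched to a RefSeq gene table of GRCm38.p6, which named 32978 of 56583 probes. Tested were the 32925 probes above background in every array of some group, the brightest standing for a gene. limma 3.58.1 in R 4.3.3 fitted 4 group means over 12 arrays with an intensity trend, two-sided, with Benjamini-Hochberg adjustment over 26107 features. The fit was tested on simulated data with independent noise in each feature. They held no slide or tissue effect, so that test does not bear on such effects. The number of arrays limits the precision. Named are the 10 members, Akp3, per list and averaged contrast the 2 smallest p, and per member the 3 most correlated genes. Members and lists were chosen with earlier results of these data known. Slides come from the file headers. Alternatives were another background correction, normalization, scaling, filter and probe rule, no trend, slides, a replicate block, tissue means, the value table and leaving out each array; 2 more were added after seeing the data.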

Additional observations from a re-analysis of the deposited data

How the results depend on the processing

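In all 7 contrasts 0 of the 10 genes were called under every alternative tried. In the fits without single arrays the smallest adjusted p of a member by limma was 0.522, for Soat2 in the averaged IIAEK effect. Fits within a slide rest on fewer arrays. Slide 1 held 1 knockout vehicle array, and slide 2 held 1 array of each group but knockout vehicle. On slide 2 alone Soat2 under IIAEK in knockout gave -0.85, which rests on 1 IIAEK array. Quantile normalization moved Abcg8 and Soat2 for IIAEK in wild type to 0.53 and 0.47 (unadjusted p = 0.072 and 0.0653). Leaving out single arrays moved Abcg8 in that contrast between 0.38 and 0.76, and between -0.79 and -0.46 for knockout under IIAEK. Labels give the groups the same replicate numbers, and the correlation of deviations was above 0.1 in 11 of 18 same-numbered pairs (lowest -0.25) and in 12 of 36 pairs of unlike number (lowest -0.72). In every group number 1 was on slide 1 and number 3 on slide 2, so pairing and slide cannot be fully told apart by these values. Since not every same-numbered pair passed 0.1, the arrays were not treated as paired, and a replicate block was kept as an alternative. With the replicate block Abcg8 for IIAEK in wild type gave 0.62 (unadjusted p = 0.0212) and 0 members were called. Median scaling moved the median of all features for the difference between the effects from -0.04 to -0.11.

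Counts over all features moved more. Those within a slide come from fits with 1 array in at least 1 group, so they do not compare with counts over 12 arrays. On slide 1 alone limma called 257 for IIAEK in wild type, 58 in knockout, 4 and 8 for knockout under vehicle and IIAEK, and 250 and 12 for the averaged effects. On slide 2 alone it called 255 for IIAEK in knockout, 35 for the difference, 80 and 14 for knockout under vehicle and IIAEK, and 58 and 49 averaged. Without wild-type vehicle 3 it called 17 for IIAEK in wild type, 1 for the difference and 18 for knockout under vehicle, and without wild-type IIAEK 3 4 for the last. A filter asking for signal on all 12 arrays, which drops Akp3, left 0, 0 and 2 for the 3 knockout contrasts. Under IIAEK the knockout count was 5 with tissue means in the model, 4 without knockout IIAEK 3 (with or without wild-type vehicle 1) and 7 on the 6 arrays low in stomach genes; the last and the joint omission were added after seeing the data. The averaged knockout count was 3 with normexp, 8 without trend or with slide as a block, and 2 to 10 without single arrays. Unadjusted p under 0.05 stood behind 819, 499, 398 and 767 features in the 4 contrasts with 0 calls. The causes were not tested.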

Other observations

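Genes that pack absorbed lipid into chylomicrons were described apart, since they are no members of the sterol circuit at the membrane. Their list also held Fabp6, which binds bile acids. Of 12 lipoprotein assembly genes, all tested, 0 were called in any of the 7 contrasts by limma, and 0 reached an unadjusted p under 0.05. For IIAEK in wild type 10 of 12 estimates lay above 0 with a median of 0.19. Of all features 56.3% lay above 0, with a median of 0.03. In knockout 3 of 12 estimates lay above 0, with a median of -0.05, against 49.2% of all features. For the difference between the effects 11 of 12 lay below 0 with a median of -0.27. There 44.1% of all features lay above 0, with a median of -0.04. These contrasts share arrays, the genes share a tissue, and no test was made on the list. Apoc3, an inhibitor of lipoprotein lipase carried on chylomicrons, read 7.18, 7.40 and 7.66 in wild type with vehicle and 7.92, 7.52 and 7.55 with IIAEK, and the groups overlapped. Its averaged estimates were 0.20 for IIAEK (interval -0.14 to 0.55) and -0.22 for knockout (-0.57 to 0.13). Fabp6, the ileal bile acid binding protein, gave -0.45 for IIAEK (-1.31 to 0.40) and -0.59 for knockout (-1.44 to 0.27), and its lowest level, -4.22, was on knockout IIAEK 3.

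Of 10 transcription factors known at promoters of these genes, 0 were called in any contrast. Gata6, a zinc finger factor of the intestine, read 3.04, 2.90 and 3.12 in wild type with vehicle and 3.47, 3.38 and 3.21 with IIAEK, without overlap. In knockout it read 2.90, 2.94 and 2.81 with vehicle and 3.23, 3.23 and 2.97 with IIAEK, again without overlap. Of all features, 9.28% did not overlap for IIAEK in wild type and 4.68% in knockout. Gata6 is named because its p for the averaged IIAEK effect was the smallest of its list. The averaged IIAEK estimate was 0.30 (SE 0.09, interval 0.10 to 0.49, unadjusted p = 0.00692, adjusted p = 1 by limma). Ppara, the fatty acid receptor, averaged -0.42 for knockout (interval -0.74 to -0.09, unadjusted p = 0.0159, adjusted p = 0.999). Nr1h4, the bile acid receptor FXR, gave -0.18 for IIAEK (-0.51 to 0.14).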
